A study of Mus musculus with 30 samples.

Results

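Procr, Pdpn, Lilrb4, Cd274, Pdcd1lg2 and Cd101 encode a small set of surface inhibitors and ligands of the immune system. Their levels were followed across 5 kinds of polarised mouse CD4 T cell, each sorted by an interleukin-10 (IL-10) reporter into positive and negative cells. The 6 genes were picked by their symbols from RSEM gene tables that list 23420 genes, and all 6 were in every table. The naive CD4 T cells came from C57BL/6 mice in which GFP reports Foxp3 and Thy1.1 reports IL-10, and were stimulated for 72 h with 2.5 µg/ml anti-CD3 and irradiated spleen cells depleted of CD4 T cells, 6 for every T cell. The Th1 culture had 20 ng/ml IL-12, the Th2 culture 20 ng/ml IL-4, the Th17 culture (called non-pathogenic in the labels) 2 ng/ml TGF-b1 with 25 ng/ml IL-6, the pTh17 culture (pathogenic Th17) 20 ng/ml IL-1b with 25 ng/ml IL-6 and 20 ng/ml IL-23, and the Tr1 culture (type 1 regulatory T cells) 25 ng/ml IL-27. From each culture an IL-10 positive and an IL-10 negative compartment, both without GFP and so without the Foxp3 reporter signal, were sorted and 2000 cells lysed for a library. There were 3 libraries in each of the 10 groups, numbered as in their titles. The labels do not say whether the libraries of a group came from separate mice or cultures, so the p-values speak only of how these libraries vary, and that variation could be technical.

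PD-L1 (gene Cd274) and PD-L2 (gene Pdcd1lg2) are the ligands of the inhibitory receptor PD-1, and T cells can carry the ligands as well as the receptor. Lilrb4, also called gp49B1, and CD101 are immunoglobulin-like receptors, and Lilrb4 recruits phosphatases through inhibitory tyrosine motifs. PROCR, the endothelial protein C receptor, binds protein C and its activated form on vessel walls, and PDPN (podoplanin) is a mucin-like protein best known on lymphatic vessels and stromal cells, where it binds the platelet receptor CLEC-2. Procr and Pdpn were both described on T cells as inhibitory receptors that accompany IL-27.

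On the GRCm38.p6 assembly (mm10) Procr lies on chromosome 2 at 155751125-155755478, plus strand, and Pdpn on chromosome 4 at 143267409-143299564, minus strand. Lilrb4, named Lilrb4a by RefSeq, lies on chromosome 10 at 51490898-51496613, and Cd101 on chromosome 3 at 100992189-101029553. Cd274 (chromosome 19, 29362107-29388095) and Pdcd1lg2 (chromosome 19, 29410919-29472927) are neighbours on the plus strand with 22.8 kb between them. The 250 bases before a transcript start are shown for Procr and Pdpn, which both had their highest mean level in the Th17 IL-10 positive cells, and for Cd274, which had its lowest there. The start is that of the transcript the RefSeq promoter table uses. It is the outer edge of the gene span for Pdpn, but lies 92 bases inside the span given above for Procr (at 155751217) and 5331 bases inside it for Cd274 (at 29367438), so these 2 windows overlap their spans. The sequences are RefSeq's for GRCm38.p6, read 5′ to 3′ on the gene's strand, and capitals mark a motif match, an AP-1 site (TGANTCA) in Procr and a GC box (GGGCGG) in Cd274.
Procr chr2:155750967-155751216 (+): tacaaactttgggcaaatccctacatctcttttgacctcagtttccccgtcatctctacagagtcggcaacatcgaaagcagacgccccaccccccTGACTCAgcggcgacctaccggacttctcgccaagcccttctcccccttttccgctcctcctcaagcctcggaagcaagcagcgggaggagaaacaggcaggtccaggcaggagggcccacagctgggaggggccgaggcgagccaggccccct
Pdpn chr4:143299565-143299814 (-): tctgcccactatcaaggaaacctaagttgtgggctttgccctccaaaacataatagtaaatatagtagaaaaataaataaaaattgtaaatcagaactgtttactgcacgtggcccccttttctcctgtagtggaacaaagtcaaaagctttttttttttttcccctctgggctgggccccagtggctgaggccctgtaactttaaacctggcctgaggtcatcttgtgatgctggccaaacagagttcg
Cd274 chr19:29367188-29367437 (+): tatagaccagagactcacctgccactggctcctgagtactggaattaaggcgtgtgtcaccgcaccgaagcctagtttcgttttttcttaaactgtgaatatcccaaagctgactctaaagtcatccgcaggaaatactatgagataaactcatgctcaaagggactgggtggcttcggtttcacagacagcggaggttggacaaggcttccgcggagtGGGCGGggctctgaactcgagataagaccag
Both strands were searched for 6 motifs: GAS (TTCNNNGAA), the core of the interferon response element, AP-1, a PRDM1 core (GTGAAAG), a core of Maf sites (TGCTGAC) and the GC box. The AP-1 match of Procr lies 154 to 148 bases before the start used for its window, and 6.73% of 32544 RefSeq promoter windows of that length held that motif. The GC box of Cd274 lies 31 to 26 bases before the start used for its window, and 33% of the windows held one. The windows of Pdpn, Pdcd1lg2 and Cd101 held none of the 6, which says only that these letters are not in them. The RefSeq promoter windows included none for Lilrb4, so it was not searched.

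Libraries held 4394704 to 11850597 expected counts, and replicates correlated at 0.971 to 0.992 (Pearson r of log2 CPM, counts scaled to library size, across genes, 30 pairs). Il10, the gene behind the sort, measured 34.9 to 1236 TPM (a level scaled for transcript length and library depth) in the IL-10 positive libraries and 0 to 98.7 TPM in the negative ones, and in each culture the positive libraries lay above the negative ones. The Th2 IL-10 negative libraries had 84.4 to 98.7 TPM of Il10, so the negative label does not mean that Il10 RNA was absent. That exceeded the IL-10 positive libraries of Th17 (34.9 to 42.4 TPM), pTh17 (76.0 to 78.2 TPM) and Tr1 (61.4 to 79.3 TPM). T cell genes were high throughout, with Cd3e at 409.5 to 823 TPM. Markers of other cell types varied. Of the myeloid genes, Lyz2 was at 0 in 22 of 30 libraries and Csf1r did not pass 0.59 TPM, whereas Ctss was at 8.50 to 364 TPM and Cd68 reached 27.6 TPM. Of the endothelial and stromal ones, Cdh5 and Pdgfra did not pass 0.24 TPM, whereas Pecam1, which T cells also carry, was at 22.7 to 135.8 TPM. The 13 B cell markers in the tables summed to 354 to 489.6 TPM in pTh17 IL-10 positive libraries, against 180.4 to 186 TPM in the negative ones, and to 10.9 to 94.3 TPM in the other 8 groups. In bulk libraries, fewer cells that express a gene and less RNA per cell cannot be told apart.

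**Figure D1:**
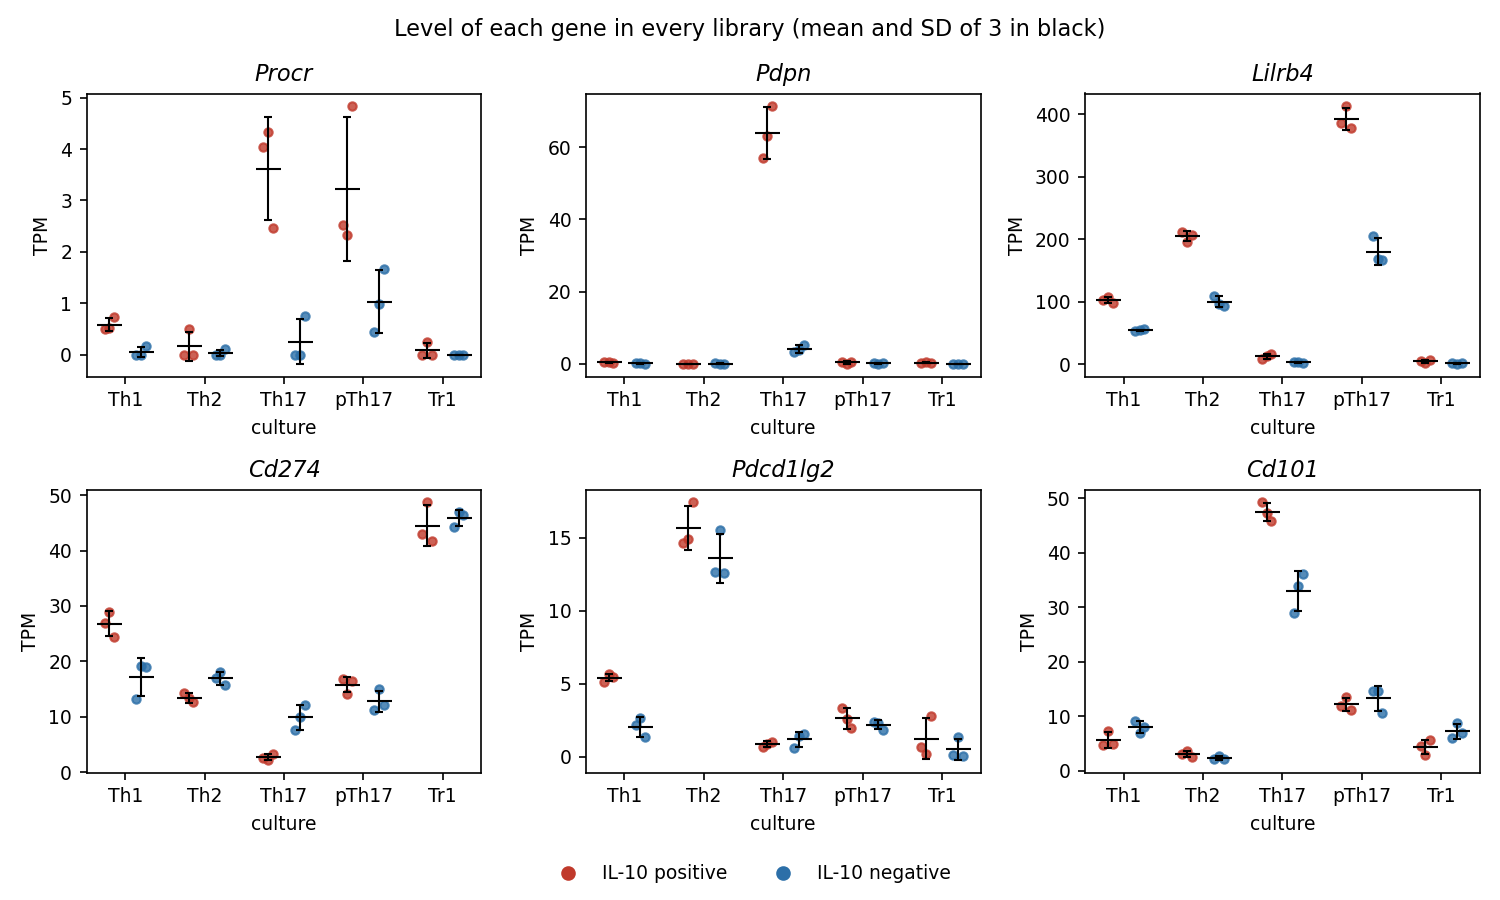
Level of each gene (TPM, vertical axis, starting at about 0 and scaled per gene) in each of the 30 libraries by culture; red points are IL-10 positive and blue points IL-10 negative libraries, and black bars give the mean and SD of 3. Pdpn reached 56.9 to 71.3 TPM in the Th17 IL-10 positive libraries and at most 5.24 TPM in the other 27, whereas Lilrb4 was highest in pTh17 and Cd274 in Tr1.

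Expected counts were tested with edgeR's quasi-likelihood test across 12611 genes, and a gene was called at a Benjamini-Hochberg adjusted p below 0.05; differences are log2, IL-10 positive over negative, with their standard error. In Th17 cells 5 of the 6 genes were called, where 58.2% of all tested genes were (29.2% higher and 28.9% lower). In Th1 cells 4 of 6 were called, against 43.8% of all genes (23.5% higher, 20.4% lower). In Th2 cells 2 of 6 were called, against 21.8% (12.3% higher, 9.49% lower), in pTh17 1 of 6, against 18.5% (10.1% higher, 8.33% lower), and in Tr1 2 of 6, against 34.7% (20.5% higher, 14.2% lower). Between cultures the share of all genes called ran from 53% to 71.8% over the 10 pairs of IL-10 positive groups, from 39.4% to 69.4% over the pairs of negative groups, and from 8.62% to 43.2% for the IL-10 difference in 1 culture minus that in another. Nothing is read from these counts beside their backgrounds, and the results below concern the genes singly. Overlap of compartments is given in TPM unless CPM is named. By CPM the compartments did not overlap for 51.4% of all tested genes in Th1, 38.7% in Th2 and 62.4% in Th17. The shares were 32.7% in pTh17 and 41.3% in Tr1, so a lack of overlap was common. Lilrb4 was the 1 gene of the 6 called in every culture, and it was higher in the IL-10 positive cells each time. Cd274 and Cd101 were each called in opposite directions in different cultures.

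Pdpn was high in Th17 cells and near 0 in the other 4 cultures, and within Th17 it was higher in the IL-10 positive cells. It measured 56.9, 63.2 and 71.3 TPM in the Th17 IL-10 positive libraries (replicates 10, 11 and 12), against 3.34, 3.76 and 5.24 TPM in the IL-10 negative ones. The compartments lay far apart, with every positive library well above every negative one. The log2 difference was 4.10 ± 0.24 (edgeR adjusted p = 2.86e-17), from 1679 counts in the 3 positive libraries and 59 in the 3 negative ones. No other library passed 0.62 TPM. In pTh17 cells the positive libraries had 0.62, 0 and 0.62 TPM, against 0.12, 0 and 0.23 TPM in the negative ones, and in Th1 cells the positive ones had 0.24 to 0.55 TPM, against 0 to 0.20 TPM in the negative ones. Sums of 2 to 10 counts lay behind each of these groups, and edgeR called neither difference (adjusted p = 0.231 in pTh17 and 0.131 in Th1). The ratio of CPM was 3.34 in pTh17 (exact 95% counting interval 0.833 to 19.2) and 3.85 in Th1 (0.821 to 36.2). In Tr1 cells 4 counts in the positive libraries stood against 0 in the negative ones, and edgeR did not call the difference (adjusted p = 0.0538). With the negative side set at a group floor of 3 counts the ratio of CPM was 1.61. That ratio leaves out the counting error of the 4 counts. Th2 cells had 1 count in the positive libraries and 3 in the negative ones, both within the floor. Between IL-10 positive cells, Pdpn in Tr1, the culture made with IL-27, differed from that in Th1 by -0.51 ± 0.84 (edgeR adjusted p = 0.629).

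Procr was low everywhere and highest in the IL-10 positive cells of the 2 Th17 cultures. The Th17 IL-10 positive libraries had 4.04, 4.34 and 2.47 TPM, against 0, 0 and 0.75 TPM in the negative ones. The pTh17 IL-10 positive libraries had 2.52, 2.32 and 4.83 TPM, against 0.43, 0.99 and 1.66 TPM in the negative ones. In neither culture did the compartments overlap. The Th17 difference was 3.88 ± 0.82 (edgeR adjusted p = 1.07e-04), from 80 counts against 3. All 3 counts of the negative side were in replicate 12; without it that side held no count, and the call remained (adjusted p = 7.66e-05). The ratio of CPM was 16.1, with an exact 95% counting interval of 5.33 to 79.9 that covers counting error only. In pTh17 cells 56 counts stood against 21, a difference of 1.53 ± 0.59 that edgeR did not call (adjusted p = 0.0675), although it did in a fit of the 6 pTh17 libraries alone (adjusted p = 0.0195). The difference in pTh17 minus that in Th17 was -2.35 ± 1.09 and was not called (edgeR adjusted p = 0.081). Th1 cells had 0.49, 0.52 and 0.73 TPM in the positive libraries, against 0, 0 and 0.17 TPM in the negative ones, from 12 counts against 1, a ratio of CPM of 9.24 (exact 95% counting interval 1.37 to 395) that edgeR did not call (adjusted p = 0.0699). Th2 cells had 5 counts, all in 1 positive library, against 1 count in the negative ones. The 6 Tr1 libraries held 1 count of Procr, in the IL-10 positive replicate 17, which is under the floor, so that no difference was detectable at this depth. Between IL-10 positive groups, Procr was higher in Th17 than in Th1 by 2.29 ± 0.63 (edgeR adjusted p = 0.00188), and pTh17 and Th17 differed by -0.01 ± 0.51 (adjusted p = 0.984). Both Procr and Pdpn passed the filter on low counts through the groups in which they were high.

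Lilrb4 was higher in the IL-10 positive cells of all 5 cultures and reached the highest level per length of the 6 genes, in pTh17 cells. The pTh17 IL-10 positive libraries had 386, 412 and 378 TPM, against 205, 168 and 166 TPM in the negative ones. The Th2 positive libraries had 212, 196 and 207 TPM, against 109.7, 96.4 and 93.1 TPM in the negative ones, and the Th1 positive libraries had 102, 107 and 98.6 TPM, against 53.9, 54.2 and 55.8 TPM in the negative ones. In these 3 cultures the compartments did not overlap, and the positive one was higher by 2.07-fold in pTh17, 2.05-fold in Th2 and 1.92-fold in Th1. The log2 difference was 1.05 ± 0.10 in pTh17 (edgeR adjusted p = 8.43e-11), 1.04 ± 0.10 in Th2 (adjusted p = 1.21e-10) and 0.94 ± 0.11 in Th1 (adjusted p = 7.60e-09). Th17 and Tr1 cells had far less of it. The Th17 positive libraries had 9.18, 13.2 and 16.6 TPM, against 3.64, 3.44 and 2.82 TPM in the negative ones, a difference of 2.08 ± 0.26 (edgeR adjusted p = 6.60e-09). The Tr1 positive libraries had 5.28, 2.58 and 6.73 TPM, against 1.82, 0.57 and 2.78 TPM in the negative ones, and the lowest positive library lay below the highest negative one. The Tr1 difference was 1.48 ± 0.40 (edgeR adjusted p = 0.0039), and without the IL-10 positive replicate 18 it was 1.11 and not called (adjusted p = 0.0691), while without the negative replicate 18 it was 2.16 and called (adjusted p = 0.00117). Averaged over the 5 cultures the difference was 1.32 ± 0.10 (edgeR adjusted p = 7.52e-14).

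The size of the Lilrb4 difference was not equal over the 5 cultures (edgeR adjusted p = 0.0154). It was larger in Th17 than in Th1 by 1.14 ± 0.29 (adjusted p = 0.00199) and than in Th2 by 1.05 ± 0.29 (adjusted p = 0.00357), and the pTh17 difference minus the Th17 one was -1.03 ± 0.29 (adjusted p = 0.0037). The equality test was no longer called without the Th17 IL-10 negative replicate 11 or 12 or the positive replicate 12 (adjusted p = 0.0541, 0.0789 and 0.0631). Within the IL-10 positive compartment, pTh17 exceeded Th17 by 5.09 ± 0.13, which is 34.1-fold, and each step of the order pTh17, Th2, Th1, Th17, Tr1 was called, from 0.86 ± 0.10 for pTh17 over Th2 to 3.31 ± 0.13 for Th1 over Th17. In the IL-10 negative compartment the order was the same, and Th17 and Tr1 were not told apart (0.63 ± 0.43, edgeR adjusted p = 0.261). Markers of B cells and myeloid cells, types that can carry Lilrb4, also moved in pTh17: 9 of 10 tested B cell markers were called higher in the positive libraries, with the sums given above. Of 13 tested myeloid and dendritic cell markers 7 were called higher, and that list summed to 211 to 243 TPM in the positive libraries, against 133 to 140.3 TPM in the negative ones. Lyz2 of myeloid cells measured 4.40 to 6.92 TPM in the pTh17 positive libraries, against 0 TPM in the negative ones. Such markers moved in other cultures too. In Th1 cells, where Lilrb4, Cd274 and Pdcd1lg2 were all called higher, B cell markers summed to 65.0 to 78.4 TPM in the positive libraries, against 23.6 to 28.5 TPM in the negative ones, and 2 of 10 were called higher. In Th1, markers of natural killer cells summed to 44.1 to 46.3 TPM in the positive libraries, against 4.14 to 4.91 TPM in the negative ones, and 2 of 3 were called higher. Of the 13 myeloid and dendritic cell markers, 6 were called higher and 1 lower in Th1, with a median of 1.17 against -0.02 over all tested genes. Their sum was 138 to 141.5 TPM in the Th1 positive libraries, against 189.6 to 224 TPM in the negative ones. In Th17 cells 4 B cell markers were called higher and 1 lower (35.1 to 42.3 TPM in the positive libraries, against 10.98 to 14.9 TPM in the negative ones), and 1 myeloid marker higher and 4 lower (132 to 149 TPM, against 326 to 376 TPM). In Tr1 cells the summed B cell markers ranged from 14.6 to 16.8 TPM in the positive libraries and from 10.9 to 16.5 TPM in the negative ones. The summed natural killer cell markers ranged from 35.97 to 38.6 TPM against 3.33 to 4.30 TPM. Of 3 tested natural killer cell markers only 1 was called higher in Tr1, with a median of 0.53 against 0.05 over all tested genes. Of 10 tested B cell markers 1 was called higher there. Over all tested genes, 10.1% were called higher in pTh17, 23.5% higher and 20.4% lower in Th1, and 29.2% higher and 28.9% lower in Th17. The part of these cell types in the differences of the 6 genes was not tested.

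Lilrb4 has a near-identical neighbour, Gp49a (RefSeq Lilr4b), an activating-type receptor without the inhibitory motifs, which lies 4.6 kb away on chromosome 10. The coding sequences match at 96% of 907 aligned bases, and 17.8% of all 50-base stretches of the Lilrb4 coding sequence occur in Gp49a as well. The first 120 coding bases of each are shown as an example of a stretch where few letters tell the pair apart; capitals mark the 2 bases that differ.
Lilrb4: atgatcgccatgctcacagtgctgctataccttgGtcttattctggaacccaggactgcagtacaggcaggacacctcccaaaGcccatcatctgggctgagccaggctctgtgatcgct
Gp49a: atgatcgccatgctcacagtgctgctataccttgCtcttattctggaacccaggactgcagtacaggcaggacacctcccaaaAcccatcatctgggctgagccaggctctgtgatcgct
RSEM divides such reads by an estimate, and the expected count of Lilrb4 was a whole number in only 1 of 30 libraries. That of Cd274 was whole in 0 of 30, and which genes share its reads was not examined. Gp49a moved with Lilrb4: its difference was 0.78 ± 0.10 in Th1, 1.01 ± 0.09 in Th2, 2.32 ± 0.34 in Th17, 0.97 ± 0.09 in pTh17 and 1.77 ± 0.39 in Tr1, each called by edgeR. Lilrb4 made up 66.6% ± 1.5 of the pair's expected counts in pTh17 IL-10 positive libraries, against 65.1% ± 2.8 in the negative ones (SD, n = 3 each). The mean share of Lilrb4 lay between 55.6% and 76.9% in all 10 groups. The error of RSEM's division of shared reads was not estimated. The levels of Lilrb4 and of Gp49a taken singly, and those of Cd274, therefore carry an uncertainty of unknown size.

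**Figure D2:**
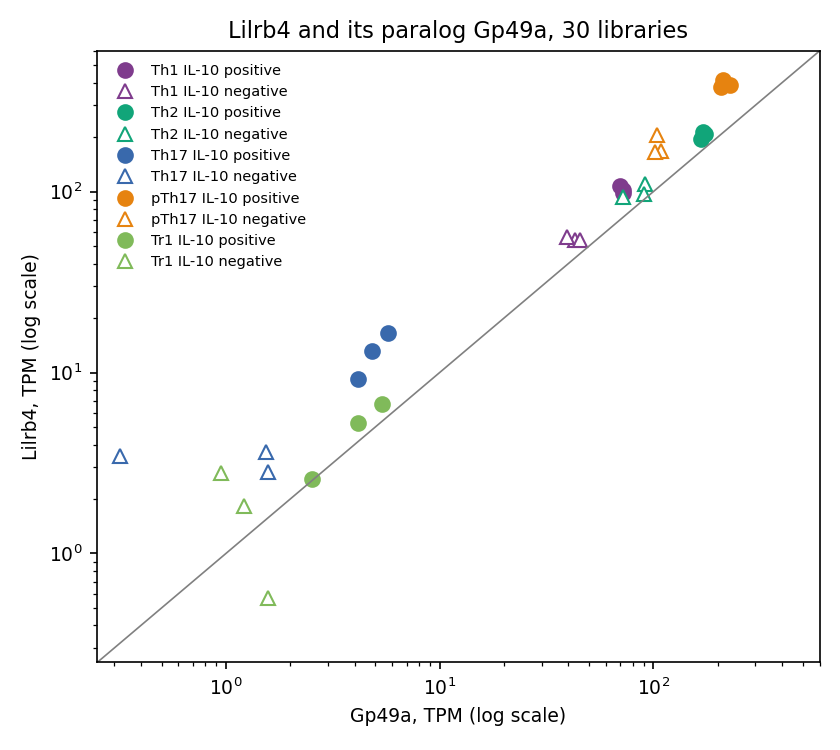
Lilrb4 (vertical axis) against its paralog Gp49a (horizontal axis), both in TPM on log scales, 1 point per library; filled circles are IL-10 positive, open triangles IL-10 negative, colours give the culture and the line marks equal levels. The pTh17 libraries lie at the top right, with Lilrb4 at 166 to 412 TPM, and the Tr1 and Th17 libraries at the bottom left with 0.57 to 16.6 TPM.

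Cd101 was also highest in Th17 cells, and its relation to IL-10 changed sign between cultures. The Th17 IL-10 positive libraries had 49.2, 47.3 and 45.8 TPM, against 29.0, 34.0 and 36.1 TPM in the negative ones. The compartments did not overlap, and the difference was 0.68 ± 0.13 (edgeR adjusted p = 3.62e-05). In Tr1 cells the positive libraries had 4.62, 2.94 and 5.63 TPM, against 6.00, 8.70 and 6.98 TPM in the negative ones, a difference of -0.64 ± 0.22 (edgeR adjusted p = 0.0207). In CPM these compartments overlapped, with the positive replicate 18 at 10.4 and the negative replicate 16 at 9.95. In Th1 cells the positive libraries had 4.75, 7.34 and 4.87 TPM, against 9.15, 7.01 and 8.08 TPM in the negative ones. The Th1 compartments overlapped in TPM and in CPM, and the difference was -0.47 ± 0.18 (edgeR adjusted p = 0.0335). The Tr1 call was lost without the negative replicate 17 (-0.55, adjusted p = 0.0821), the negative replicate 18 (-0.63, adjusted p = 0.0566) or the positive replicate 17 (-0.41, adjusted p = 0.197). The Th1 call was lost without the negative replicate 4 or 6 or the positive replicate 4 or 6 (-0.46 to -0.35, adjusted p = 0.0754 to 0.16), with median-of-ratios size factors (-0.41, adjusted p = 0.0613), and with no filter on low counts (-0.40, adjusted p = 0.0557). Cd101 differed by 0.41 ± 0.21 in Th2 (edgeR adjusted p = 0.173) and -0.19 ± 0.15 in pTh17 (adjusted p = 0.46), neither of them called. The differences were unequal over the 5 cultures (edgeR adjusted p = 1.65e-05), that in Th17 exceeding that in Th1 by 1.14 ± 0.22 (adjusted p = 6.99e-05) and that in Tr1 by 1.32 ± 0.26 (adjusted p = 7.48e-05). Among IL-10 positive groups the order was Th17, pTh17, Th1, Tr1, Th2, and Tr1 and Th2 were the neighbours not told apart (0.42 ± 0.22, edgeR adjusted p = 0.0926). Among IL-10 negative groups it was Th17, pTh17, Th1, Tr1, Th2, with Tr1 and Th1 not told apart (-0.35 ± 0.19, adjusted p = 0.138).

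Cd274, the gene of PD-L1, was highest in Tr1 cells in both compartments and lowest in the IL-10 positive Th17 cells. The Tr1 IL-10 positive libraries had 43.0, 48.7 and 41.8 TPM, against 44.2, 47.0 and 46.5 TPM in the negative ones. These values overlapped, and the difference was 0.03 ± 0.11 (edgeR adjusted p = 0.852), with a sign that changed between settings. In Th17 cells the positive libraries had 2.64, 2.29 and 3.37 TPM, against 7.62, 9.99 and 12.2 TPM in the negative ones. Every positive library lay below every negative one, a difference of -1.69 ± 0.17 (edgeR adjusted p = 4.44e-11). Th1 cells showed the opposite: the positive libraries had 27.0, 28.9 and 24.5 TPM, against 13.2, 19.1 and 19.1 TPM in the negative ones, and the difference was 0.67 ± 0.12 (edgeR adjusted p = 1.01e-05). In Th2 cells the positive libraries had 14.2, 13.4 and 12.6 TPM, against 16.96, 18.1 and 15.8 TPM in the negative ones, a difference of -0.34 ± 0.11 (edgeR adjusted p = 0.0296). The Th2 call was lost when any of 5 of the 6 Th2 libraries was left out, namely the negative replicates 7, 8 and 9 and the positive replicates 8 and 9 (-0.35 to -0.28, adjusted p = 0.0512 to 0.143). In pTh17 cells the positive libraries had 16.9, 14.2 and 16.4 TPM, against 11.3, 14.9 and 12.2 TPM in the negative ones, which overlapped (0.24 ± 0.12, edgeR adjusted p = 0.188).

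Cd274 had the lowest p of the 6 genes for unequal differences (equality over 5 cultures, edgeR adjusted p = 4.16e-11; 5 of the 6 were called in that test, against 60.7% of all genes, Pdpn among them with 5 of its 10 groups at or under 3 counts). The Th17 difference minus the Th1 difference was -2.36 ± 0.21 (adjusted p = 4.59e-12), and the pTh17 difference minus the Th17 difference was 1.94 ± 0.21 (adjusted p = 9.30e-10). Among IL-10 positive groups Tr1 exceeded Th1 by 0.58 ± 0.11 (adjusted p = 2.87e-05) and Th17 lay below Tr1 by a log2 difference of -4.18 ± 0.14 (adjusted p = 4.08e-25). Between them, pTh17 and Th2 were not told apart (0.17 ± 0.12, adjusted p = 0.22). In the IL-10 negative compartment the span was narrower, with Th17 below Tr1 at -2.46 ± 0.13 (edgeR adjusted p = 9.04e-19), and Th2 and Th1 were not told apart (-0.07 ± 0.12, adjusted p = 0.636). Set against the average of the IL-10 positive groups of the 4 remaining cultures, 5 of the 6 genes were called in the Tr1 IL-10 positive cells, against 65.6% of all genes. Cd274 was the 1 of the 6 that was higher there, by 1.98 ± 0.09 (edgeR adjusted p = 2.33e-21). Lilrb4 was lower there by a log2 difference of -4.40 ± 0.17, Pdcd1lg2 at -1.60 ± 0.37 and Cd101 at -1.21 ± 0.17, each called. The Pdcd1lg2 value was -1.06 without the Tr1 positive replicate 17 and -3.22 without the positive replicate 18, and was called in both. Procr was called lower as well (edgeR adjusted p = 0.0127), but the Tr1 IL-10 positive libraries held 1 count of it, under the floor of 3, so no size is given, and it was not called without the Tr1 positive replicate 16 or 18 or the Th2 positive replicate 8 (adjusted p = 0.0539, 0.0575 and 0.992).

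Pdcd1lg2, the gene of PD-L2, followed another order, with Th2 cells highest. The Th2 IL-10 positive libraries had 14.7, 14.9 and 17.4 TPM, against 12.7, 15.5 and 12.6 TPM in the negative ones, and these overlapped (0.20 ± 0.22, edgeR adjusted p = 0.579). Th1 was the culture in which it was called: the positive libraries had 5.16, 5.70 and 5.45 TPM, against 2.18, 2.67 and 1.34 TPM in the negative ones, without overlap and with a difference of 1.45 ± 0.32 (edgeR adjusted p = 3.25e-04). In Tr1 cells the positive libraries had 0.66, 0.21 and 2.83 TPM, against 0.12, 1.35 and 0.08 TPM in the negative ones. In each compartment 1 library, positive replicate 18 and negative replicate 17, held most of the 32 and 14 counts. The Tr1 difference was 1.50 ± 0.65 and not called (edgeR adjusted p = 0.0732); it was -0.13 without the positive replicate 18, and it was called at 3.68 without the negative replicate 17, at 2.04 without the positive replicate 17 and at 1.79 without the positive replicate 16. B cell markers summed to 14.6 TPM in that positive library and to 15.8 and 16.8 TPM in the other 2 of its group. In Th17 cells the positive libraries had 0.68, 0.91 and 1.04 TPM, against 0.63, 1.46 and 1.57 TPM in the negative ones, and in pTh17 cells 3.35, 2.61 and 1.95 TPM, against 2.41, 2.35 and 1.85 TPM in the negative ones. Both pairs overlapped, and neither was called. The differences were unequal over the cultures (edgeR adjusted p = 0.0166), that in Th1 exceeding that in Th2, since the Th2 difference minus the Th1 one was -1.25 ± 0.39 (adjusted p = 0.0196). That equality test was not called without the Th1 negative replicate 6 (adjusted p = 0.0697) or by DESeq2 (adjusted p = 0.0582). GENCODE places an antisense gene over each of Lilrb4, Cd274 and Pdcd1lg2. As the libraries record no strand, reads from a stretch that both genes of such a pair share cannot be told apart. Whether the overlaps lie in exons was not examined. The expected count of Pdcd1lg2 was whole in 27 of 30 libraries, that of Lilrb4 in 1 and that of Cd274 in 0. The antisense gene over Pdcd1lg2, A930007I19Rik, had 0 to 12 counts per library. A protein-coding gene on the same strand, Gm49339, overlaps both Lilrb4 and Gp49a.

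**Figure D3:**
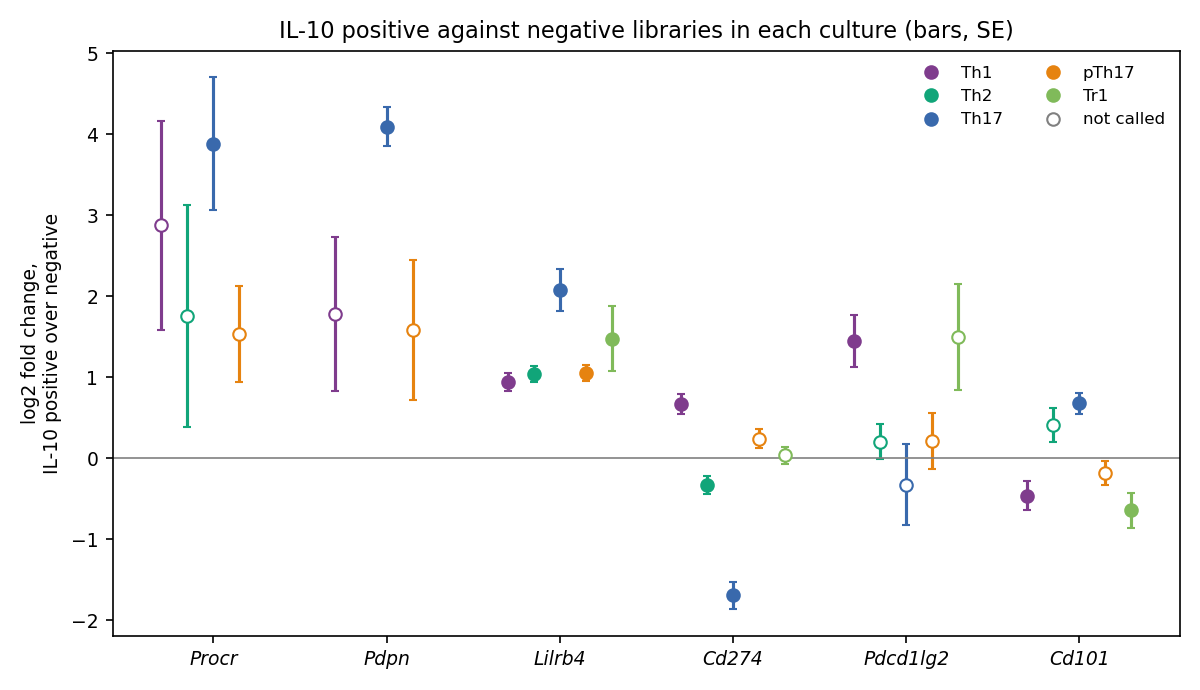
Log2 fold change, IL-10 positive over negative libraries (vertical axis, linear scale of log2 values), for each gene and culture, with bars for the standard error; filled points were called by edgeR at an adjusted p below 0.05 and open points were not. Lilrb4 lies above 0 in all 5 cultures, at 0.94 to 2.08, while Cd274 runs from -1.69 in Th17 to 0.67 in Th1; Pdpn in Th2 and in Tr1 and Procr in Tr1 are left out for want of counts.

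Averaged over the 5 cultures, 5 of the 6 genes were called, against 57.8% of all genes. Among them Cd274 was lower in the IL-10 positive cells (-0.22 ± 0.06, edgeR adjusted p = 0.00151), Cd101 was not called (-0.04 ± 0.08, adjusted p = 0.687), and Pdcd1lg2 was higher by 0.61 ± 0.20 (adjusted p = 0.00773). The Pdcd1lg2 mean was 1.05 without the Tr1 negative replicate 17, and 0.29 and not called without the Tr1 positive replicate 18 (adjusted p = 0.251). For Procr and Pdpn, also called, no mean is given because Tr1 IL-10 negative libraries held no count of either. The 2 PD-1 ligands, neighbours in the genome, had a Pearson r of 0.02 across the 30 libraries (log2 CPM). Lilrb4 and Pdcd1lg2 were both high in Th2 cells (r = 0.73), and Pdpn and Cd101 were both high in Th17 cells (r = 0.76), whereas Pdpn and Cd274 ran against each other (r = -0.81). These coefficients describe 30 libraries that share 10 groups, and they carry no test. The log2 CPM of Pdpn ran from 1.52 to 5.86 in Th17 and from -1.99 to -0.24 elsewhere, where a group held at most 10 counts. Procr had at most 12 counts in a group outside the Th17 and pTh17 cultures. Low counts therefore limit the coefficients of both genes, here and in the next paragraph. Of the 2 ligands, Cd274 had the higher level per length in each of the 10 group means except Th2 IL-10 positive, where Pdcd1lg2 averaged 15.7 ± 1.53 TPM and Cd274 13.4 ± 0.821 TPM (SD, n = 3 each).

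By the same measure, over 8853 named genes (Gm, LOC and Rik models left out) with a mean of at least 5 CPM, the genes most like Pdpn were Gpr15 (r = 0.944), Rbpms2 (0.923) and Sema6d (0.908). Gpr15, a homing receptor for the large intestine, averaged 229.7 TPM in Th17 IL-10 positive libraries, 32.9 TPM in the negative ones, and at most 1.26 TPM in the other 8 groups. The genes most like Procr were Fkbp1a (r = 0.880), Cisd1 (0.877) and Twsg1 (0.872), and those most like Cd101 were Arntl (0.940), Rora (0.924) and Prss12 (0.921). Rora, a nuclear receptor of the Th17 programme, averaged 102 TPM in Th17 IL-10 positive libraries, against 39.5 TPM in the negative ones. Cd274 was most like the interferon-inducible genes Gbp8 (0.980), Gbp9 (0.969) and Irf1 (0.966). Irf1, an interferon response factor, averaged 754.5 TPM in Tr1 IL-10 positive libraries, against 782 TPM in the negative ones, and 42.1 TPM in Th17 IL-10 positive libraries, against 182 TPM in the negative ones. Lilrb4 was most like Gp49a (0.979), Lss (0.977), an enzyme of cholesterol synthesis, and Aldoa (0.969), an enzyme of glycolysis. Pdcd1lg2 was most like Lgals7 (0.918), Cpt2 (0.899) and Ptgir (0.899). The lowest coefficients were those of Art2b with Procr (-0.845), Ifih1 with Pdpn (-0.930), Sun2 with Lilrb4 (-0.952), Rnft1 with Cd274 (-0.943), Cep97 with Pdcd1lg2 (-0.902) and Tmem229b with Cd101 (-0.939). On log2(TPM + 1) values, all 3 genes most like Lilrb4 and Cd274 were the same, 2 of 3 for Pdpn and Cd101, and 1 of 3 for Procr and Pdcd1lg2.

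Of the genes that act with the PD-1 ligands, Pdcd1 itself, the PD-1 receptor, was higher in the IL-10 positive cells of all 5 cultures. Its difference was 2.32 ± 0.10 in Th1, 1.08 ± 0.09 in Th2, 0.63 ± 0.10 in Th17, 0.31 ± 0.10 in pTh17 and 1.90 ± 0.18 in Tr1, each called. In Th1 cells both ligands and Pdcd1 were called higher, whereas in Th17 cells Pdcd1 was called higher and Cd274 lower. Cd80, which binds PD-L1 on the same cell, was called higher in Th1 (3.11 ± 0.47) and Tr1 (2.26 ± 0.63). Cd86, a ligand of CD28 known from B cells and dendritic cells, was called higher in pTh17 (5.23 ± 0.39), where it measured 11.4 to 17.5 TPM in positive and 0.25 to 0.57 TPM in negative libraries beside the B cell markers given above, in Th17 (3.12 ± 0.36) and in Tr1 (3.33 ± 1.18). Rgmb, a partner of PD-L2, was called higher in Tr1 (2.03 ± 0.75) and lower in Th17 (-1.78 ± 0.60), and Cmtm6, which protects PD-L1 at the surface, was called in Th2 (0.23 ± 0.06) and in no other culture. Over the 9 genes of this list, 3 were called higher and 0 lower in Th1, 3 and 1 in Th2, 3 and 1 in Th17, 2 and 1 in pTh17, and 6 and 0 in Tr1. Of all tested genes, 23.5% were called higher and 20.4% lower in Th1, 12.3% and 9.49% in Th2, and 29.2% and 28.9% in Th17. The shares were 10.1% and 8.33% in pTh17 and 20.5% and 14.2% in Tr1. Nothing is read from the list counts, here or below, beside these shares. The median difference of the list in Tr1 was 0.58, against 0.05 over all tested genes.

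Among the partners of the protein C receptor, thrombomodulin (Thbd), protein C (Proc), tissue factor (F3) and Serpina5 did not pass the filter on low counts. The thrombin receptor F2r, through which activated protein C signals, was called higher in the IL-10 positive cells of every culture, by 1.30 ± 0.08 in Th1, 0.36 ± 0.07 in Th2, 0.89 ± 0.12 in Th17, 1.11 ± 0.09 in pTh17 and 1.32 ± 0.10 in Tr1. F2rl1, a protease-activated receptor that responds to trypsin, was called lower in 4 cultures, most in Th17 (-2.37 ± 0.15), and was not called in Th1 (-0.17 ± 0.15). Pros1, protein S, the cofactor of activated protein C, was called lower in Th2 (-0.69 ± 0.09), Th17 (-0.52 ± 0.11) and pTh17 (-0.60 ± 0.12) and higher in Th1 (0.34 ± 0.11). Of the 6 tested partners, 4 were called higher and 1 lower in Th1, 2 and 2 in Th2, and 1 and 3 in Th17. The counts were 2 and 2 in pTh17, and 2 and 1 in Tr1. Shares over all tested genes are given above with the PD-1 ligands.

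The platelet receptor of podoplanin, Clec1b, and its chemokine partner Ccl21a did not pass the filter. Of 8 tested partners, 3 were called higher and 1 lower in Th1, 1 and 3 in Th2, and 2 and 4 in Th17. The counts were 0 and 3 in pTh17, and 1 and 2 in Tr1, beside the same shares over all tested genes. In Th17 cells, where Pdpn was high, Cd44 was called higher (0.49 ± 0.09) together with the linker Rdx (0.43 ± 0.07), and Cd9, a tetraspanin, was called lower (-1.16 ± 0.08) with Lgals8 (-1.37 ± 0.11), Msn (-0.40 ± 0.05) and Ccr7 (-1.18 ± 0.06). Ccr7, the receptor for Ccl21a, was called lower in the IL-10 positive cells of all 5 cultures, from -3.94 ± 0.07 in Th1 to -0.53 ± 0.06 in Tr1.

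Among other receptors with inhibitory motifs and their phosphatases, Lair1, a collagen receptor, was called higher in Th1 (1.50 ± 0.19) and Tr1 (1.40 ± 0.21) and lower in Th2 (-0.65 ± 0.21). Pecam1 was called lower in all 5 cultures, from -1.81 ± 0.08 in Th1 to -0.23 ± 0.07 in Th2. Inpp5d, the lipid phosphatase SHIP-1, was called higher in Th2 (0.39 ± 0.07), pTh17 (0.23 ± 0.07) and Tr1 (0.39 ± 0.08), and Ptpn6, the phosphatase SHP-1, was called higher in Tr1 (0.58 ± 0.06) and lower in Th2 (-0.38 ± 0.05) and pTh17 (-0.20 ± 0.05). Of the 7 tested genes of this list, 2 were called higher and 1 lower in Th1, 2 and 3 in Th2, and 1 and 2 in Th17. The counts were 2 and 2 in pTh17, and 4 and 1 in Tr1. They include Gp49a, which lacks the inhibitory motifs and was called higher in all 5 cultures. Among ligands reported for Lilrb4, Itgb3 of the integrin that binds it was called lower in Th1, Th2, Th17 and Tr1, most in Th17 (-1.96 ± 0.10), and Itgav, its partner chain, was called higher in Th2 (0.90 ± 0.13) and pTh17 (1.07 ± 0.14). Of the 3 tested ligand genes, 0 were called higher and 1 lower in Th1, 1 and 1 in Th2, and 0 and 2 in Th17. The counts were 1 and 0 in pTh17, and 0 and 2 in Tr1. Both lists of this paragraph stand beside the same shares over all tested genes.

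**Figure D4:**
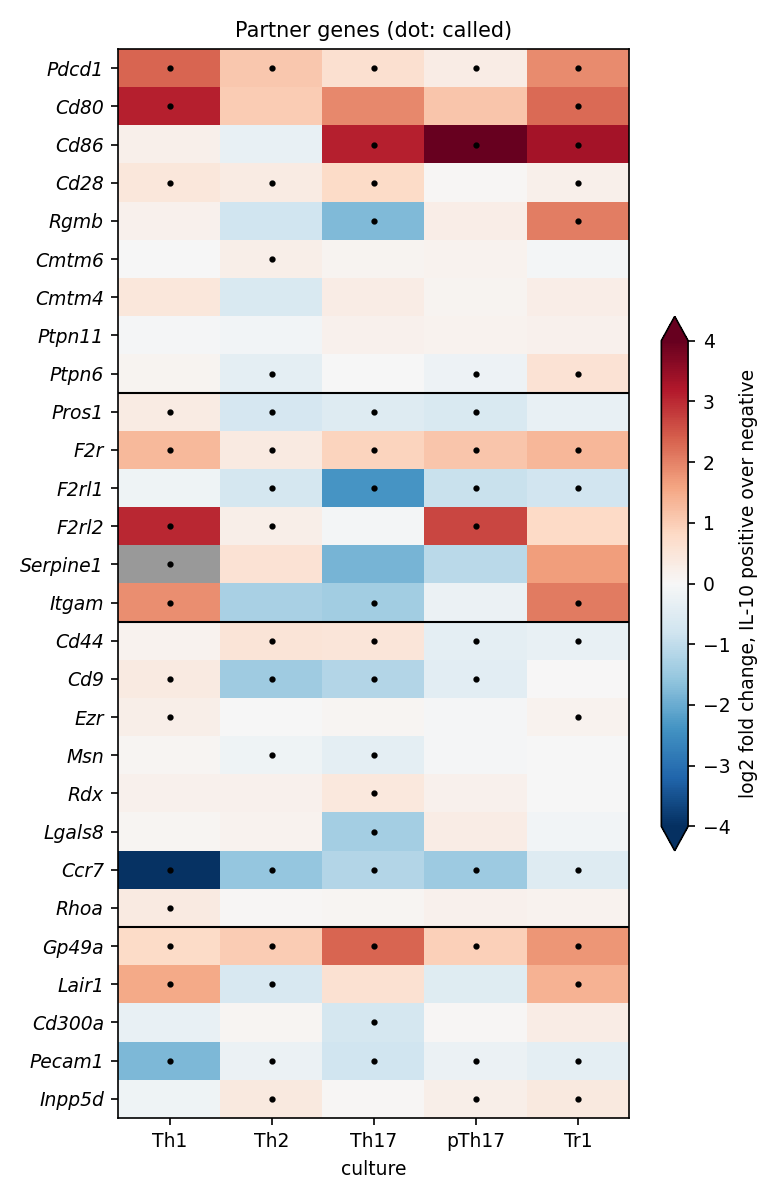
Log2 fold change, IL-10 positive over negative, of partner genes (rows, in 4 blocks: PD-1 axis, protein C receptor, podoplanin, inhibitory-motif receptors and phosphatases) in the 5 cultures (columns); red is higher and blue lower in IL-10 positive cells, colours stop at 4 and -4, dots mark genes called by edgeR and grey marks a compartment with no counts. Pdcd1, F2r and Gp49a are red with a dot in all 5 columns, and Ccr7 and Pecam1 blue with a dot in all 5. Gp49a stands in the last block although it lacks the inhibitory motifs.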

How the data were processed

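The authors deposited, per the file headers, 1 RSEM gene table per library with expected counts, which need not be whole, TPM, FPKM and another measure, gene and effective length; FPKM and lengths were not used. The submitters' processing notes name RSEM and mm10; no source used here gives an aligner or the version of RSEM. Per the labels, libraries of 2000 cells were made by an adaptation of SMART-Seq2, without molecular identifiers or strand. RSEM estimates how reads shared by paralogs divide, and this can shift counts between Lilrb4 and Gp49a.

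Expected counts were rounded, filtered with filterByExpr (12611 of 23420 genes kept, all 6 genes among them), scaled by TMM and fitted with edgeR 4.0.16 in R 4.3.3, 1 mean per group over 30 libraries, by quasi-likelihood; Benjamini-Hochberg adjusted p-values run over all genes tested, and called means below 0.05. Standard errors are the log2 difference divided by the root of F. TPM, as deposited, gave the levels. The floor was 3 counts over a group. The fit was tested on simulated data. Totals of 4394704 to 11850597 expected counts limit the precision for Procr and Pdpn.

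Compartments were taken from titles, since the protocol gives Thy1.1 positive for both. Same-numbered libraries did not deviate together (correlations -0.046 to 0.055 over 15 pairs), so the numbers were not used as pairs. Alternatives were RLE size factors, no filter, DESeq2 1.42.0, limma 3.58.1 on log2(TPM + 1) and log2(TPM + 0.1) for genes with a mean TPM of at least 1, single cultures, the replicate block, Lilrb4 and Gp49a summed, and each library left out. The genes, partner lists and motifs were chosen with earlier results of these data known; the text names all 6 genes, the genes of the lists, and for each gene the 3 most and the 1 least correlated genes.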

Additional observations from a re-analysis of the deposited data

Results flagged for a closer look

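For 5 of the 6 genes the IL-10 positive minus negative difference was not the same in the 5 cultures, by edgeR's test of equality (adjusted p, 4 degrees of freedom), a test that called 60.7% of all genes. Cd274 stood out most, at an adjusted p of 4.16e-11, with 0.67 in Th1 and -1.69 in Th17. Cd101 followed at 1.65e-05, with 0.68 in Th17 and -0.64 in Tr1. Pdpn had 0.00823, with 1 and 3 counts in the positive and negative Th2 libraries and 0 in the negative Tr1 ones; within Th2 both sides are at or under the floor of 3, so no difference is measurable there. Without the Th2 IL-10 negative replicate 7 the Pdpn test gave 0.0769. Lilrb4 had 0.0154 and Pdcd1lg2 0.0166. Procr was not called (adjusted p = 0.349).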

How the results depend on the processing

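Of 2348 values recomputed under alternatives, 2283 kept their direction and their side of the threshold or stayed within 1.5 times of the count. Cd274 in Tr1 changed sign, to -0.06 with no filter on low counts and to -0.05 by limma on either TPM scale. In fits of single cultures the number of the 6 genes called was 2 in pTh17 (Procr added) and 1 in Tr1 (Cd101 lost, -0.66, adjusted p = 0.0583), and by limma on either TPM scale it was 1 in Th2 (Cd274 lost, adjusted p = 0.129 and 0.149). Leaving out single libraries gave 1 to 2 of 6 called in Th2, 1 to 3 in Tr1 and 3 to 5 for the mean over cultures, the lowest without the Th2 positive replicate 8, when the positive Th2 libraries held no count of Procr or Pdpn. Over the same omissions Procr in Th2 ranged from -1.55 to 3.30, Pdcd1lg2 in pTh17 from -0.04 to 0.39 and in Tr1 from -0.13 to 3.68, Cd274 in Tr1 from -0.04 to 0.09, and the mean of Cd101 from -0.09 to 0.01. Pdcd1lg2 in Tr1 was called with no filter (1.40, adjusted p = 0.0187) and by DESeq2 (adjusted p = 0.0472), and in Th1 it was not by limma on log2(TPM + 0.1) (adjusted p = 0.0574). Summing Lilrb4 and Gp49a changed no call. With the replicate block Pdpn in Tr1, with 4 counts against 0, was called (adjusted p = 0.0462), and no other call for the 6 genes changed; 13 of 30 libraries correlated best with their own number. Depth limits Procr and Pdpn outside the Th17 cultures, where 0 to 12 counts stood behind a group.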

Other observations

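Other inhibitory receptors of T cells were also measured. Of 10 tested genes of that list, 6 were called higher and 2 lower in Th1, 5 and 3 in Th2, and 5 and 2 in Th17. The counts were 7 and 2 in pTh17, and 6 and 2 in Tr1. Shares over all tested genes are those given with the PD-1 ligands. Tigit and Ctla4 were called higher in the IL-10 positive cells of all 5 cultures, Tigit from 1.06 ± 0.09 in Th2 to 3.05 ± 0.12 in Tr1 and Ctla4 from 0.64 ± 0.07 in Th1 to 1.18 ± 0.07 in pTh17 (edgeR). Cd200r1, the receptor for CD200, was called higher in Th2 (1.09 ± 0.13) and pTh17 (1.61 ± 0.21) and lower in Th1 (-1.07 ± 0.20) and Th17 (-1.92 ± 0.16).

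Of 8 transcription factors linked to IL-10 or IL-27, Maf and Prdm1 were called higher in Th1, Th2, pTh17 and Tr1, and neither was called in Th17, where Maf differed by 0.03 ± 0.10 and Prdm1 by -0.27 ± 0.56. Ahr, the aryl hydrocarbon receptor, was called higher in Th17 (1.90 ± 0.17) and lower in pTh17 (-0.85 ± 0.24). Irf1 was called lower in Th17 (-1.96 ± 0.08), higher in Th1 (0.22 ± 0.07) and was not called in Tr1 (0.02 ± 0.07).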
